A study of Rattus norvegicus with 2 samples.

Results

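Cell cycle and DNA replication genes were examined in the whole blood RNA of rats given lavender oil (LO) by mouth and of control rats. The list held 40 genes, chosen by function and not by any measured value: the replicative helicase and its sliding clamp, the enzymes that supply DNA building blocks, the cyclins, the cyclin-dependent kinases (CDKs) and their inhibitors, the mitotic kinases and regulators, and the checkpoint kinases. A probe was assigned to a gene through the RefSeq accession that the array design gives it, or else through a gene symbol or synonym given as its name. In this way 25 of the 40 genes were matched to 37 probes, among 8898 genes named on the array in all. No probe was matched by accession, symbol or synonym to Mcm2, Mcm3, Mcm4, Mcm5, Mcm6, Tk1, Cdk6, Ccne1, Ccne2, E2f1, Rb1, Bub1, Bub1b, Top2a or Mki67. These 15 genes were not analysed here.

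The LO group was 6 male rats dosed with LO from Lavandula angustifolia at 5 mg/kg in 10% ethanol, and the control group was 6 male rats that received the 10% ethanol diluent alone, so that ethanol was common to both. Dosing was into the stomach once a day for 13 days in rats bought at an age of 7 weeks, and blood was sampled on day 14. The labels name both F334 and Wistar as the strain, and they name the portal vein beside the heart as the source of the blood, whereas the methods of the study name the heart and the Fischer F334 strain only. The RNA of each group was combined into 1 pool, and the same 2 pools were hybridised to 2 arrays with the dyes exchanged. Array 1 carried LO in Cy5 and control in Cy3, and array 2 the reverse. The arrays are therefore 1 technical replicate pair, the spread between rats was not measured, and no test between the groups was possible.

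Cells that divide pass from G1 into S phase. In G1, D-type cyclins with Cdk4 or Cdk6 lead to inactivation of the retinoblastoma protein and release of E2F transcription factors. In S phase, the Mcm2 to Mcm7 helicase and the Pcna clamp take part in copying the DNA. Cyclin A and cyclin B with Cdk1, together with the Aurora and Polo-like kinases and the Cdc20-bound ubiquitin ligase, then carry the cell through G2 and mitosis. Most cells of circulating blood do not divide: mature red cells and platelets have no nucleus, neutrophils have left the cycle, and most lymphocytes rest until they meet antigen. Transcripts of these genes in blood are known from young red cells and from activated or precursor leukocytes. In RNA of whole blood, fewer cells of a type and less RNA per cell cannot be told apart.

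The phase of a gene is partly written in its promoter. E2F sites are known from genes of G1/S and S phase, whereas the cell cycle homology region (CHR) and CCAAT boxes are known from genes of G2 and mitosis. RefSeq promoters of the GRCr8 build, each 300 bases from 250 before to 50 after the start of a gene, were found for 30 of the 40 genes and searched on both strands. An E2F site, taken as TTTGGCGC, TTTCCCGC, TTTCGCGC or TTTGCCGC, was present in 5 of 6 promoters of the replication group and in 1 of 12 of the G2 and mitosis group (Cdk1, outside the window shown), beside 2.14% of all 33469 promoters. In the G1 and G1/S group the site was present in 1 of 5 promoters, and in nucleotide supply in 1 of 3. It was present in the 1 promoter found for the checkpoint kinases and in 0 of 3 of the CDK inhibitors. These E2F words can overlap each other on opposite strands, and a promoter was counted once. The CHR element TTTGAA was present in 8 of 12 promoters of the G2 and mitosis group and in 1 of the 18 others, beside 18.3% of all promoters. A CCAAT box was present in 9 of 12 promoters of the G2 and mitosis group, beside 37.5% of all promoters. In the replication group it was present in 5 of 6, so the CCAAT box did not separate these 2 groups. A CHR together with a CCAAT box stood in 7 of 12 of the G2 and mitosis group, beside 7.41% of all promoters. A match describes the letters only and is not evidence of binding. Windows of 100 bases are shown for 5 genes that were measured on the arrays in both pools and both dyes, since they carry the elements of early and late genes of the cycle. They run 5′ to 3′ on the strand of the gene, with CHR, CCAAT and E2F matches on either strand in capitals.

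Cdk1, chr20:19265194-19265293, plus strand: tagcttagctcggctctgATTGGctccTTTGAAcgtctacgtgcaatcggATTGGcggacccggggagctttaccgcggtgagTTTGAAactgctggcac

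Cdc20, chr5:137255836-137255935, minus strand: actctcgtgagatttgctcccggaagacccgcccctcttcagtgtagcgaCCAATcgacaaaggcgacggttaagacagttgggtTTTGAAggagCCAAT

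Plk1, chr1:186147570-186147669, plus strand: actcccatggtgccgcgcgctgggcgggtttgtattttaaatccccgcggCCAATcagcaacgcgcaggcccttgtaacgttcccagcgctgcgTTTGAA

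Mcm7, chr12:22163223-22163322, minus strand: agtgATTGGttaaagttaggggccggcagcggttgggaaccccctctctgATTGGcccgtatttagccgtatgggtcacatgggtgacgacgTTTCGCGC

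Tyms, chr9:120776071-120776170, minus strand: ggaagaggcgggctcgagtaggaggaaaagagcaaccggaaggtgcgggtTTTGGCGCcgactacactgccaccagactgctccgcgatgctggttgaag

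The Cdk1 window held 2 CHR elements and 2 inverted CCAAT boxes, that of Cdc20 held 1 CHR element between 2 CCAAT boxes, and that of Plk1 held a CCAAT box and a CHR element just after the start. The windows of Mcm7 and Tyms held an E2F site each, with 2 inverted CCAAT boxes beside it in Mcm7 and none in Tyms.

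The values described here are processed signals, which are background-subtracted, dye-normalized spot intensities in arbitrary units. They were compared between pools and arrays for the same probe and never between probes. A signal is called well above background as the scanner software rated it, and dim where it was not. Dim values can lie near a floor. Chek1 and the second probes of Ccna2 and Ccnb1 gave 15.4, 14.4 and 14.2 in the LO pool on array 1. In the control pool on that array they gave 12.0, 10.7 and 10.6, yet their log ratios were 0 on both arrays. Such values do not measure an amount. Over the array the median signal lay between 53.6 and 62.8 in the 4 channels (2 pools on 2 arrays), and 44.8% to 50.3% of features were well above background in a channel. Blood identity was checked with marker genes. All matched probes of red cell (4, of Hbb, Alas2 and Slc4a1), platelet (5), T cell (4) and B cell (1, of Cd79b) markers were well above background in all 4 channels. Only 3 of 9 listed red cell genes and 1 of 5 listed B cell genes were matched. In all 4 channels, 5 of 6 probes of neutrophil and monocyte markers and 2 of 3 of red cell or stem precursor markers were above it. Of the probes of heart muscle markers, 1 of 7 was. The median LO part of these lists, defined below, lay between -0.11 and 0.10 on the log2 scale, the highest being that of the 1 Cd79b probe. The part of cell composition in the cell cycle values was not tested.

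Many of the cell cycle genes gave a measurable signal in blood. Of the 37 probes, 25 (67.6%) were well above background in all 4 channels, 5 in some channels and 7 in none. Over all 41009 probes 37.5% were above it in all 4 and 41.1% in none. The 2 sets are unlike, since the member probes are all among the 10767 that could be named and most of the 41009 could not. No share over the named probes alone stands beside them. By gene, 20 of the 25 matched genes had a probe measured in all 4 channels, 3 (Ccnd1, Ccna2 and Aurkb) in some, and 2 (Chek1 and Chek2) in none. All 3 CDK inhibitors, the 3 matched genes of nucleotide supply and both matched replication genes had such a probe, as had 4 of 5 G1 genes and 8 of 10 genes of G2 and mitosis. Neither checkpoint kinase had one.

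**Figure D1:**
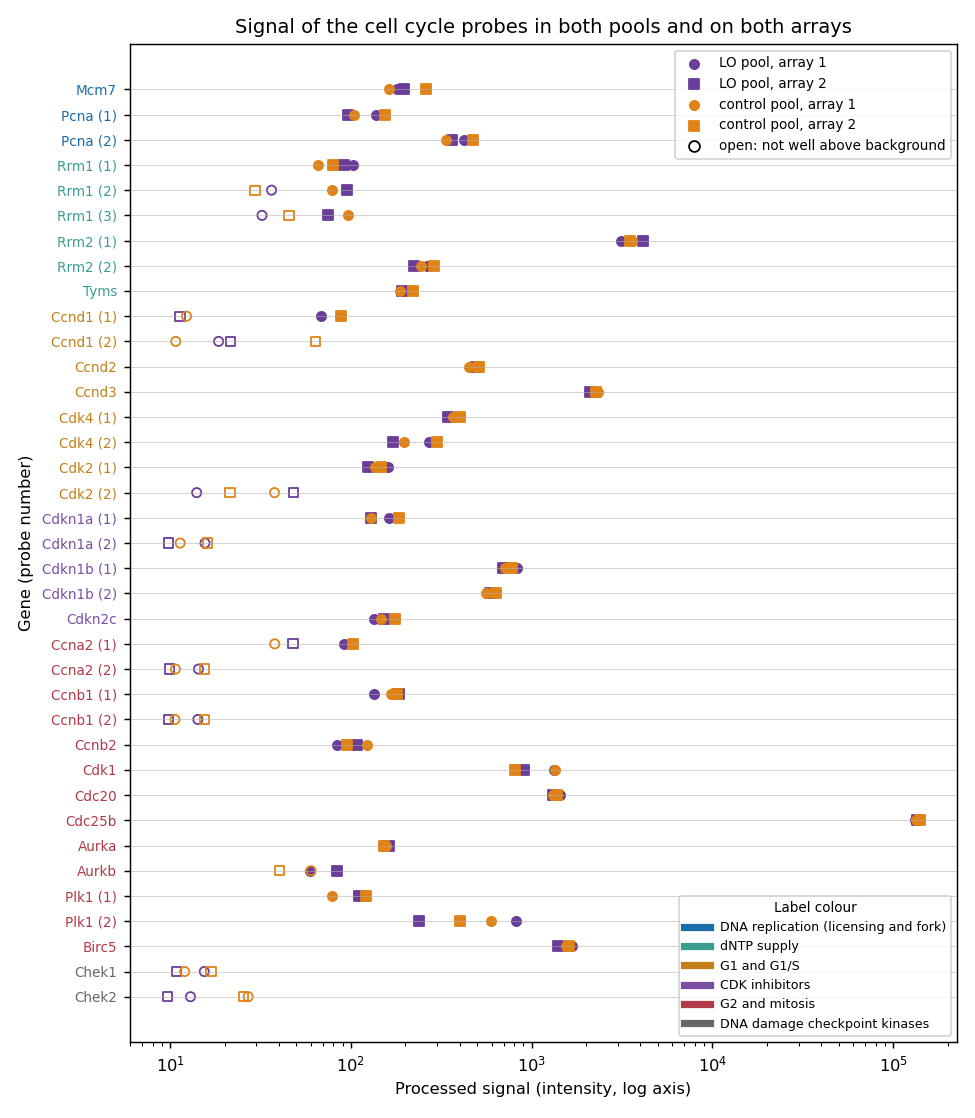
Processed signal (x axis, intensity on a log scale) of the 37 probes, 1 row a probe, for the LO pool (purple) and the control pool (orange) on array 1 (circles) and array 2 (squares). Filled points are well above background and open points are not. Ccnd1, Ccna2 and 2 Rrm1 probes have filled points in 1 dye only, and the second Plk1 probe has the widest spread among rows with filled points only.

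The comparison addressed whether 13 days of LO changed these transcripts. The LO/control ratio was taken on each array, and it was divided into a part that follows the pool (the LO part, the mean of the log2 ratios of both arrays) and a part that follows the dye (the dye part, the log2 ratio of array 1 less that mean, positive towards Cy5). Errors given with the LO part were propagated from the authors' error model of each spot and hold no spread between rats. As a threshold the methods give a p under 0.01 in the spot error model of the authors' Feature Extraction software. For network analysis they give fold limits of 1.5 and 0.75 against control. For the dye swap they describe genes higher on chip 1 and lower on chip 2. Read as Cy5 over Cy3, that is the same direction in LO on both arrays, and the reverse was taken here for genes lower in LO. The methods do not say whether the p had to hold on both arrays, which was required here. With that p on both arrays and the same direction in LO, 0 of the 37 probes were up-regulated and 0 down-regulated. Over all probes the shares were 0.00975% and 0.0122%. Towards the same dye on both arrays, 1 of 37 probes (Ccnd1) passed the same p towards Cy5 and 0 towards Cy3, beside 1.58% and 1.06% of all probes. Among the 25 probes measured in all 4 channels, 0 had an LO part past 1.5-fold higher and 0 past 1.5-fold lower, beside 0.026% and 0.0975% of the 15386 such probes on the array. A dye part past 1.5-fold was found in 2 of the 25 (the second probes of Cdk4 and Plk1), beside 6.49% of all. The fold limits were applied here without a p, as Cy5 over Cy3 of 1.5 or more on the array with the higher pool in Cy5 and of 0.75 or less on the array with it in Cy3. They were passed by 0 member features with LO higher and by 1 with LO lower (Chek2), beside 0.835% and 1.09% of all 43379 features.

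The median LO part of the 25 probes was -0.05 on the log2 scale (SD between probes 0.13), beside a median of 0.00 (SD 0.12) over all probes measured in all 4 channels. The LO pool was lower in 17 of 25 probes (68.0%), beside 51.3% of all. This split was 60.0% lower with normexp background correction and loess, beside 49.6% of all probes. It was 80.0% lower with median-centred background-subtracted signals, in which 73.7% of all probes were lower. The LO part was smaller than its own error in 24 of 25 probes, with Rrm1 as the exception, beside 89.0% of all. It lay within 1.96 errors in all 25, beside 99.2% of all probes measured in all 4 channels. The dye part was the larger of the 2 parts in 20 of 25 probes, which therefore had LO/control ratios in opposite directions on the arrays, beside 75.6% of all probes. It pointed to Cy5 in 19 of 25, beside 51.6% of all, and its median size was 0.19, beside 0.15. Across the 25 probes, which share arrays, pools and labelling, the ratios on array 1 correlated with those on array 2 at r = -0.55 (Pearson) and rho = -0.56 (Spearman), and over all probes measured in all 4 channels at r = -0.70 and rho = -0.68. The labels and the methods state the dyes of both arrays, so the directions were kept as labelled; had array 2 been labelled the other way, the LO and dye parts would change places.

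**Figure D2:**
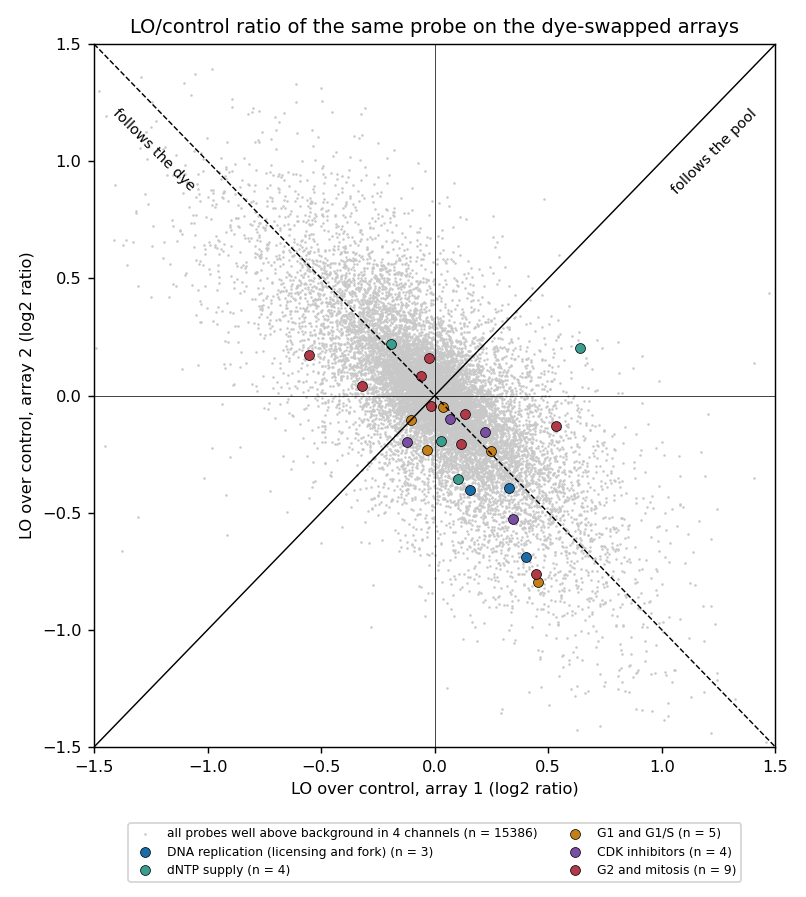
LO/control log2 ratio of each probe on array 1 (x axis) against array 2 (y axis), for the 25 cell cycle probes measured in all 4 channels (coloured by group) and all 15386 such probes (grey, 10 of them outside the axes). The solid line marks equal ratios, as for a difference between pools, and the dashed line opposite ratios, as for a difference between dyes. Most coloured points lie along the dashed line, and Rrm1 alone has both ratios above 0.

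D-type cyclins and their partner kinases move a resting cell through G1. Ccnd3, cyclin D3, which is known from lymphocytes and red cell precursors, had signals of 2178 in the LO pool and 2341 in the control pool on array 1, and 2115 and 2272 on array 2. Its ratios of 0.930 on array 1 and 0.931 on array 2 were nearly equal, so that its dye part was 0.00 and its LO part was -0.10 ± 0.14 on the log2 scale. The 95% interval of the error model ran from 0.764 to 1.13 as an LO/control ratio. Ccnd2 gave 463 in the LO pool and 451 in the control pool on array 1, and 495 and 513 on array 2. All 4 of these values lay within a narrow range, with an LO part of -0.01 ± 0.15. Ccnd1, cyclin D1, behaved differently, and its first probe gave 68.5 in the LO pool and 12.3 in the control pool on array 1, and 11.4 and 88.1 on array 2. Both Cy5 signals were well above background and neither Cy3 signal was, whichever pool was labelled. LO over control was therefore 5.56 on array 1 and 0.129 on array 2, and the authors' spot p was 0.00325 and 1.11e-04, and each ratio rests on a dim channel. The second Ccnd1 probe was dim in all 4 channels, and no fold is given for it.

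Cdk4, the kinase partner of the D-type cyclins, was measured by 2 probes. The first gave 359.6 in the LO pool and 368 in the control pool on array 1, and 343 and 402 on array 2, with an LO part of -0.13 ± 0.15. The second gave 271 in the LO pool and 198 in the control pool on array 1, and 172 and 298 on array 2, with a nearly equal LO part of -0.17 ± 0.18. The LO pool was lower by both, within the error of each. They differed in the dye part, which was 0.10 in the first and 0.63 in the second, where Cy5 was the brighter dye on both arrays. For the second probe the spot p of the authors' software was 0.0645 (array 1) and 0.0014 (array 2). Cdk2, which acts with cyclins E and A at the start of S phase, gave 161 in the LO pool and 136 in the control pool on array 1, and 125 and 147 on array 2 at its first probe, an LO part of 0.01 ± 0.19. Its second probe was dim in all 4 channels.

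CDK inhibitors hold the kinases in check and are known to be kept up in resting cells. Cdkn1b (p27), a marker of quiescence, had a probe printed on 10 spots with mean signals of 829 in the LO pool and 711 in the control pool on array 1, and 697 and 776 on array 2. The 10 spots gave an LO part of 0.03 ± 0.03 (SD between spots), from -0.01 to 0.08, and LO was higher in 9 of them. Their dye part was 0.19 ± 0.05 and pointed to Cy5 in all 10 spots. The second Cdkn1b probe, on 1 spot, gave 587 in the LO pool and 559.8 in the control pool on array 1, and 591 and 634 on array 2 and an LO part of -0.02 ± 0.15, so that the probes lay on either side of 0. Cdkn1a (p21), a target of p53, had 8 unflagged spots of 10 for its first probe, with mean signals of 162 in the LO pool and 129 in the control pool on array 1, and 129 and 185 on array 2. Its LO part was -0.09 ± 0.06 (SD between spots), from -0.16 to -0.00, and LO was lower in all 8 spots. The dye part of the same spots was 0.44 ± 0.21 and ran from 0.19 to 0.76. The SD of the LO part between spots, which are technical repeats on the same arrays, was below the error of 0.19 that the authors' model gives for Cdkn1a and below that of 0.15 for Cdkn1b. The second Cdkn1a probe was dim in all 4 channels. Cdkn2c (p18), an inhibitor of Cdk4 and Cdk6, gave 135 in the LO pool and 146 in the control pool on array 1, and 152 and 175 on array 2. Both its ratios were below 1, 0.920 on array 1 and 0.871 on array 2, with an LO part of -0.16 ± 0.20.

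**Figure D3:**
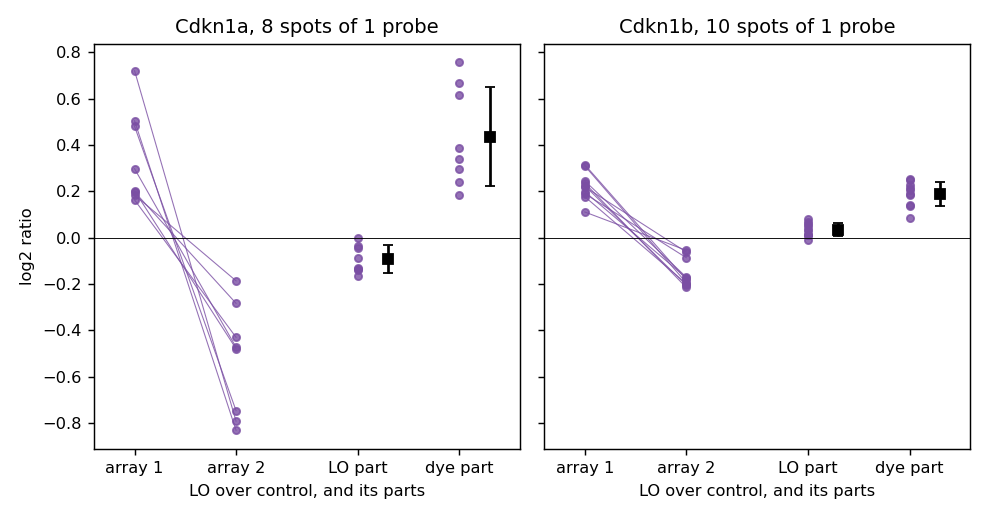
LO/control log2 ratio (y axis) of each unflagged spot of the repeated Cdkn1a probe (8 spots, left) and Cdkn1b probe (10 spots, right) on array 1 and array 2, joined by a line for each spot, with the LO part and the dye part of each spot. Black squares and bars are the mean and SD over spots; every line falls from above 0 to below 0, and the LO part varies less than the dye part.

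The replication machinery was represented by Mcm7 and Pcna. Mcm7, a subunit of the replicative helicase, gave 181 in the LO pool and 162 in the control pool on array 1, and 198 and 261 on array 2. Its highest signal was thus in the control pool in Cy5, and its LO part was -0.12 ± 0.19. Pcna, the clamp that holds the DNA polymerase, gave 138 in the LO pool and 105 in the control pool on array 1, and 96.3 and 155 on array 2 by its first probe. Its second probe gave 421 in the LO pool and 335 in the control pool on array 1, and 361 and 474 on array 2. In both probes LO was the brighter pool on array 1 and control on array 2, that is, Cy5 was the brighter dye each time. The LO part was -0.14 ± 0.21 for the first probe and -0.03 ± 0.16 for the second, and the dye part was 0.55 and 0.36. For the first probe the spot p of the authors' software was 0.18 (array 1) and 0.0194 (array 2). LO was lower in all 3 replication probes, each by less than its error.

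Ribonucleotide reductase and thymidylate synthase supply the building blocks of DNA. Rrm2, the regulated small subunit of the reductase, gave 3139.7 in the LO pool and 3583 in the control pool on array 1, and 4106 and 3523 on array 2 by its first probe. Its second probe gave 263 in the LO pool and 245 in the control pool on array 1, and 224 and 287 on array 2. The LO parts were 0.02 ± 0.15 and -0.13 ± 0.16, and the dye parts had opposite signs, -0.21 and 0.23. Tyms gave 189.8 in the LO pool and 186 in the control pool on array 1, and 192 and 219.8 on array 2, with an LO part of -0.08 ± 0.17. Rrm1, the large subunit, had the largest LO part of the 25 member probes measured in all 4 channels. Its first probe gave 103 in the LO pool and 66.1 in the control pool on array 1, and 91.6 and 79.6 on array 2. LO was the brighter pool on both arrays, with ratios of 1.56 on array 1 and 1.15 on array 2 and an LO part of 0.42 ± 0.25, and the 95% interval ran from 0.959 to 1.87 as a ratio. The authors' spot p was 0.0676 and 0.559. With normexp and loess this LO part was 0.11. The other Rrm1 probes were well above background in both Cy3 channels and in neither Cy5 channel. One gave 36.4 in the LO pool and 78.5 in the control pool on array 1, and 94.9 and 29.5 on array 2. The last gave 32.2 in the LO pool and 96.9 in the control pool on array 1, and 74.9 and 45.5 on array 2. Their LO parts had opposite signs, 0.29 ± 0.36 and -0.43 ± 0.33, and rest on dim channels. The direction of the first probe was thus shared by only 1 of the others.

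Genes of G2 and mitosis formed the largest group. Cdk1, the kinase that starts mitosis, gave 1326 in the LO pool and 1349 in the control pool on array 1, and 902 and 808 on array 2. Its LO part was 0.07 ± 0.15, and both pools were dimmer on array 2. Its cyclin partner Ccnb1 gave 134 in the LO pool and 167 in the control pool on array 1, and 185 and 180.2 on array 2 by its first probe, with an LO part of -0.14 ± 0.18, while its second probe was dim in all 4 channels. Ccnb2 gave 83.6 in the LO pool and 122 in the control pool on array 1, and 107 and 95.2 on array 2. In Ccnb2 Cy3 was the brighter dye on both arrays, with a dye part of -0.36 and an LO part of -0.19 ± 0.23. Ccna2, cyclin A2, was well above background in Cy5 only, as was Ccnd1, with 91.6 in the LO pool and 37.9 in the control pool on array 1, and 47.8 and 103 on array 2 by its first probe. Its ratios of 2.42 on array 1 and 0.465 on array 2 opposed each other, and its second probe was dim in all 4 channels.

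Cdc20, which activates the ubiquitin ligase that ends mitosis, gave 1440.2 in the LO pool and 1313 in the control pool on array 1, and 1314 and 1388 on array 2, with an LO part of 0.03 ± 0.15. Birc5 (survivin), a member of the chromosomal passenger complex, gave 1669.6 in the LO pool and 1541 in the control pool on array 1, and 1401 and 1616 on array 2, with an LO part of -0.05 ± 0.15. Cdc25b, the phosphatase that activates CDKs, gave 132750.0 in the LO pool and 134128 in the control pool on array 1, and 136174 and 140461 on array 2. Its 4 signals lay close together and none was saturated, with an LO part of -0.03 ± 0.14 and a dye part of 0.01. Aurka, the kinase of the spindle poles, gave 151 in the LO pool and 157 in the control pool on array 1, and 162 and 153 on array 2, with an LO part of 0.01 ± 0.19. Aurkb, the kinase of the passenger complex, gave 59.5 in the LO pool and 60.1 in the control pool on array 1, and 83.5 and 40.2 on array 2. The LO pool was well above background on both arrays and the control pool on neither, and each ratio rests on a dim channel. LO over control was 0.989 (array 1) and 2.08 (array 2), and the authors' spot p was 0.974 and 0.0256. The pools were nearly equal on array 1, and the LO part was 0.52 ± 0.33 with the authors' log ratios and 0.02 with normexp and loess.

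Plk1, the Polo-like kinase of mitotic entry, was measured by 2 probes whose LO parts had opposite signs. The first gave 114 in the LO pool and 78.4 in the control pool on array 1, and 110.3 and 121 on array 2, with an LO part of 0.20 ± 0.23. The second gave 816 in the LO pool and 599 in the control pool on array 1, and 238 and 404 on array 2, with an LO part of -0.16 ± 0.16 and a dye part of 0.60. For the second probe the spot p of the authors' software was 0.0363 (array 1) and 0.00127 (array 2), with LO higher on array 1 and lower on array 2.

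**Figure D4:**
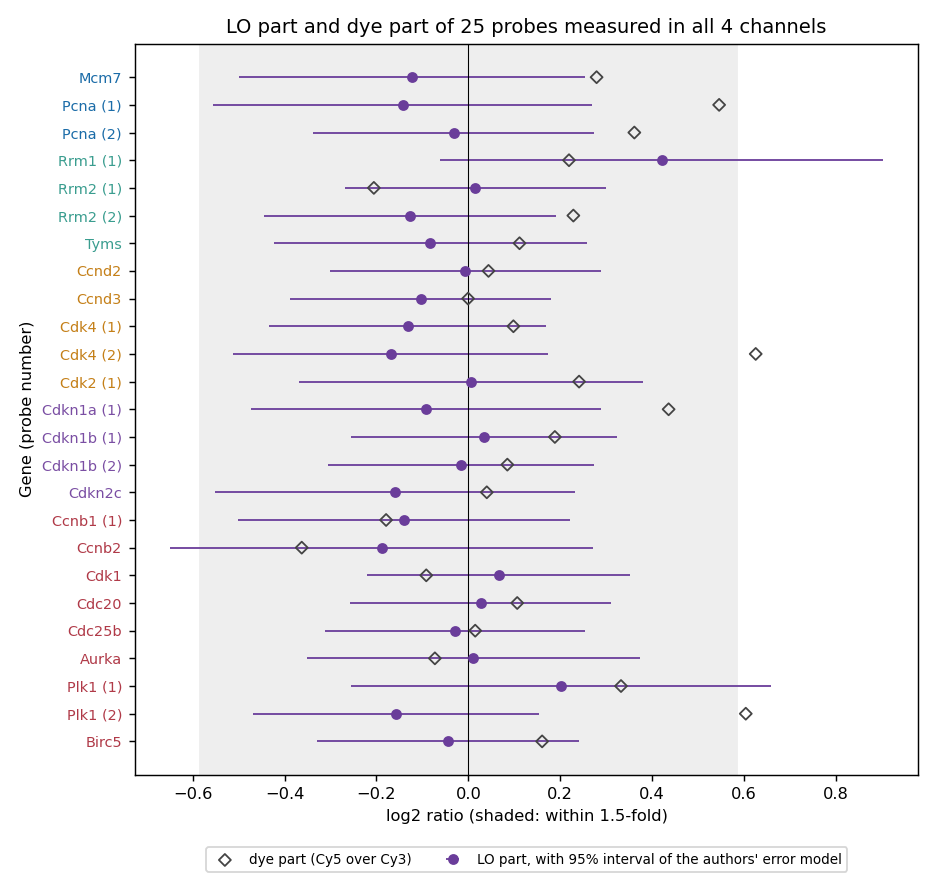
LO part (filled circles, with the 95% interval of the authors' error model) and dye part (open diamonds) on the log2 scale (x axis) of the 25 probes measured in all 4 channels, 1 row a probe. All LO parts lie within 1.5-fold (shaded) with intervals that include 0, and the dye parts of the second Cdk4 and Plk1 probes lie outside it.

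The checkpoint kinases Chek1 and Chek2, which halt the cycle after DNA damage, were not measurable. Chek1 gave 15.4 in the LO pool and 12.0 in the control pool on array 1, and 10.8 and 16.8 on array 2, and none of these was well above background. Chek2 gave 13.0 in the LO pool and 27.0 in the control pool on array 1, and 9.63 and 25.5 on array 2, again with no channel well above background. Chek2 passed the fold limits with LO lower, and the authors' spot p was 0.404 and 0.359. Since both pools were dim on both arrays, no fold is given.

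Where a gene had more than 1 probe, the probes did not always give the same picture. In 3 genes (Cdk2, Cdkn1a and Ccnb1) one probe was measured in all 4 channels and another in none. Of the 5 genes with 2 probes measured in all 4 channels, Pcna and Cdk4 had LO parts of the same sign, while Rrm2, Cdkn1b and Plk1 had not. The difference between the LO parts of such a pair ran from 0.04 in Cdk4 to 0.36 in Plk1, and that between the dye parts from 0.10 in Cdkn1b to 0.53 in Cdk4. The dye part had the same sign in 4 of the 5 genes.

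Cdk1 and the second Plk1 probe also differed between the arrays in both pools. The mean log2 signal of both channels on array 2, less that on array 1, was -0.65 in Cdk1 and -1.17 in this Plk1 probe, while over all probes measured in all 4 channels the median difference was 0.05 (SD 0.23). A value at least as low was seen in 0.637% of all such probes for Cdk1 and in 0.162% for Plk1. The first Plk1 probe was 0.29 higher on array 2. The cause of these differences between arrays was not tested, and the ratio of pools is taken within an array.

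**Figure D5:**
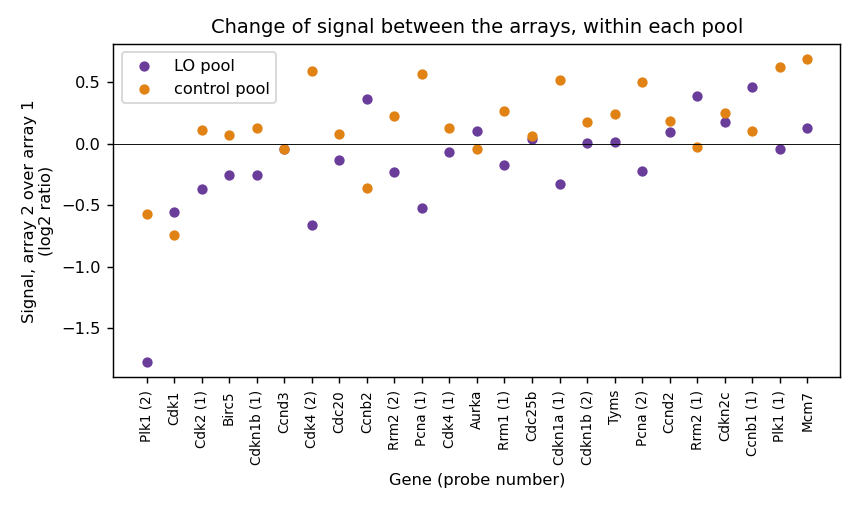
Log2 ratio of the signal on array 2 over array 1 (y axis) in the LO pool (purple) and the control pool (orange) for the 25 probes measured in all 4 channels, ordered by the mean of both. The second Plk1 probe and Cdk1 stand at the left with both pools far below 0.

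Another 104 cell cycle genes, which belong to replication, G1/S control, mitosis and checkpoints and were not picked for how they moved, were set beside the members. Of these, 40 genes were matched to 57 probes. Of the probes, 31 (54.4%) were measured in all 4 channels and 13 (22.8%) in none, beside 37.5% and 41.1% of all. None of the 57 passed the same selection towards a pool, beside 0.00975% higher and 0.0122% lower of all probes. Towards Cy5, 2 probes (Gins4 and Tfdp1) passed its p, beside 1.58% of all. Gins4 was well above background in 2 of 4 channels and Tfdp1 in 3, so each had a ratio that rests on a dim channel. Among the 31, 0 had an LO part past 1.5-fold, beside 0.026% higher and 0.0975% lower of all such probes. The median LO part of the 31 was 0.03 (SD 0.12), with LO lower in 13 (41.9%), beside 51.3% of all. The largest was that of Cdkn2b (p15), an inhibitor of Cdk4 and Cdk6, with 132 in the LO pool and 190.2 in the control pool on array 1, and 158 and 204 on array 2. Cdkn2b thus was lower in LO on both arrays, with an LO part of -0.45, and the authors' spot p was 0.0429 and 0.141. The LO part lay within 1.96 errors in 30 of the 31 probes, with Cdkn2b as the exception, beside 99.2% of all. By list, 14 of 20 probes of other G1/S regulators, 10 of 22 of other replication genes, 7 of 11 of other mitosis genes and 0 of 4 of other checkpoint genes were measured in all 4 channels.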

How the data were processed

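Blood RNA of the LO and control groups, 6 rats each, was pooled by group and measured on 2 Agilent rat whole genome arrays as a technical dye swap, counted as 1 replicate. The authors extracted spots with Agilent Feature Extraction 11.0.1.1, per the labels, which subtracted background and normalized the dyes by LOWESS. The deposited scanner output gives spot intensity values, the log10 ratio of Cy5 over Cy3 with its error, a p-value of each spot's error model that is not adjusted, and flags. The authors' deposited value table equals the log10 ratio of the processed signals within 5e-07 and was an alternative.

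Log ratios were expressed as LO over control in log2 units. Control spots, as well as 338 features flagged as non-uniform or population outliers, 2 of the 55 member features among them, were removed. Spots of a probe were averaged, the median p was taken, and a channel counted as well above background where most of its spots did. Names came from RefSeq for GRCr8 through accessions, or else symbols or synonyms, for 10767 of 41009 probes. The headers of the scanner output give rn4 as the build of the design, whose coordinates were not used. Precision is limited by there being 2 arrays.

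All 40 genes were accounted for, and values are given for members measured in all 4 channels, members past a threshold and at least 1 member of each group. Cdkn2b was named after its values were seen. The members and lists were chosen with earlier results of these data known. The selection rule and the division into parts were tested on simulated data. The planted changes were larger than any LO part of a member, so recovery at the sizes described here was not tested. Alternatives covered the p threshold, dim and flagged probes, fold limits, the value table, background-subtracted signals centred on the median, normexp with an offset of 50 and loess on median signals, averaging of probes and each array alone. Normalization was done with limma 3.58.1 in R 4.3.3, and all else with Python 3.11.15 (numpy 2.4.6, pandas 2.3.3, scipy 1.17.1, matplotlib 3.10.9).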

Additional observations from a re-analysis of the deposited data

How the results depend on the processing

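The count of 0 probes with a p under 0.01 on both arrays towards the same pool was also 0 at a p under 0.05, at a p under 0.001, with probes measured in all 4 channels only and with flagged features kept, and it was 1 by the fold limits without a p (Chek2). On 1 array alone it ran from 2 to 4 probes, with array 2 alone at 4, and so did the count towards 1 dye, where pool and dye cannot be told apart. Towards the same dye on both arrays there were 4 probes at a p under 0.05, 0 at a p under 0.001 and 0 with probes measured in all 4 channels only. The count with an LO part past 1.5-fold was 1 (Chek2) without a filter on dim probes, and on 1 array alone it ran from 1 to 3; it was 0 under the other alternatives. These counts under the alternatives were taken for members only. No share over all probes stands beside them, so a departure from it cannot be judged. The median LO part of -0.05 ran from -0.15 (array 2 alone) to 0.10 (array 1 alone) and was -0.02 with normexp and loess and -0.12 with median centring. The median size of the dye part was 0.10 with normexp and loess, 0.45 with median centring and 0.15 with the probes of a gene averaged. The cause of these moves was not tested. Members with a probe well above background numbered 23 when 1 channel on each array sufficed. Of 30 LO parts of single probes, 27 with normexp and loess, 28 with median centring and 30 in the value table moved by less than the spread between the arrays. That spread holds the dye part and is a wide measure. Aurkb, which went from 0.52 to 0.02 with normexp and loess, is among those counted as moving by less. The value table holds the same log ratios, so its count was given in advance. No paired analysis was possible because the samples are 2 arrays of the same pools, with no replicate numbers in the labels. Probes dim in a channel limit what can be measured, and with 1 pool a group the intervals set no limit on a difference between the LO and control rats.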
